A study of Mus musculus with 7 samples.

Results

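The C/EBP family of transcription factors was examined in lin- bone marrow cells of mice with and without HRP-2. Its members were taken by symbol, as Cebpa, Cebpb, Cebpd, Cebpe, Cebpg and Cebpz, which are 6 of the 25033 gene symbols in each count file, and all 6 were among the 11265 genes with enough reads to be tested. The cells were the lineage-negative (lin-) fraction of femur and tibia marrow, which is left after cells carrying markers of mature blood lineages are removed. There were 3 wild type mice (WT 1 to 3) and 4 knockout mice (KO 1 to 4), each giving 1 library and each labelled a biological replicate. The knockout mice were C57BL/6N animals with the tm1b allele of Hdgfrp2, now called Hdgfl2, the gene that encodes the chromatin reader HRP-2. The allele is present in all cells of the body, not in blood cells alone, and marrow was taken from mice aged 6 to 8 weeks. The labels name no treatment.

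C/EBP proteins are basic leucine zipper (bZIP) factors that bind DNA as dimers and are central regulators of granulocyte formation. C/EBP alpha (Cebpa) directs multipotent progenitors into the granulocyte and monocyte lineages, C/EBP epsilon (Cebpe) acts later and is needed for the secondary granules of neutrophils, and C/EBP beta (Cebpb) sustains granulocyte output during infection. C/EBP delta (Cebpd) is induced by inflammatory cytokines, and C/EBP gamma (Cebpg) lacks an activation domain of its own and works as a dimer partner. Cebpz shares the name but is not a bZIP protein: it is a nucleolar protein linked to ribosome assembly and to the mRNA methylation machinery.

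Upstream sequence was available for Cebpa, Cebpb and Cebpg in a RefSeq promoter table of build GRCm38.p6. The 250 bases before each start site are shown because they are where factors measured in the same libraries, among them C/EBP proteins and Creb1, are known to act on these genes. Each is written 5′ to 3′ on the strand of its gene, with capitals for letters that matched 1 of 5 searched motifs on either strand. The Cebpa window is chr7:35119043-35119292 on the plus strand, the Cebpb window is chr2:167688665-167688914 on the plus strand and the Cebpg window is chr7:35056567-35056816 on the minus strand.
Cebpa: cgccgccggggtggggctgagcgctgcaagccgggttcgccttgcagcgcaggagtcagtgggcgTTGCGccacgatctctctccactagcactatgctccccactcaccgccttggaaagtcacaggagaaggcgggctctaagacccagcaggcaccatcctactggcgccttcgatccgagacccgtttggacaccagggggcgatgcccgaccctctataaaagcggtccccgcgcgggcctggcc
Cebpb: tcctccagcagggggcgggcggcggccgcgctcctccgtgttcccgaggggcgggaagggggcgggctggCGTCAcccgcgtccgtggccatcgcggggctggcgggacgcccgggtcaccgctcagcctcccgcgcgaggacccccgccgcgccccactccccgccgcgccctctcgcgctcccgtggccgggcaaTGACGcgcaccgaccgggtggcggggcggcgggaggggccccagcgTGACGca
Cebpg: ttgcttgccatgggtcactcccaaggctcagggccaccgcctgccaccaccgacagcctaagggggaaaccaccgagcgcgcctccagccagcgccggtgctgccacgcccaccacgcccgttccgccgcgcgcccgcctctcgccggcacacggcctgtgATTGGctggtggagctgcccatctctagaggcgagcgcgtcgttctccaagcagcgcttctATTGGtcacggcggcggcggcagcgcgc
The Cebpa window held TTGCG, the core of a C/EBP site, 185 bases before the start site, and 14.52% of 32851 promoter windows held these letters. The Cebpb window held TGACG, the core of a CREB or ATF site, at 53 and 7 bases before the start and on the opposite strand at 180 bases, against 17.77% of windows with at least 1 copy. The Cebpg window held CCAAT on the opposite strand at 89 and 28 bases before the start, against 33.85% of windows. Neither the longer C/EBP motif TTGCNNAA (9.564% of windows) nor the STAT motif TTCNNNGAA (7.02%) occurred in the 3 windows. All 3 windows were rich in G and C, at 66.4% for Cebpa, 81.6% for Cebpb and 70.8% for Cebpg against a median of 52.4%. No binding was measured in these mice, so a match describes only the letters.

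The libraries held 3525665 to 5605158 reads on genes, and Hdgfl2 fell from 46.0 ± 3.40 reads per 1000000 scaled reads (CPM; SD, n = 3) in wild type to 1.28 ± 0.936 (n = 4) in knockout mice (log2 fold change -5.09, SE 0.34, adjusted p = 1.38e-07), with groups that did not overlap. The library KO 3 stood apart: it had Ddx3y, on the Y chromosome, at 104 CPM and Xist at 0.56 CPM, while the other 6 had Xist at 228 CPM or more and Ddx3y at 0 to 0.78 CPM. The share of reads on Rn45s, the ribosomal RNA precursor, ranged from 4.94% to 20.6% and overlapped between genotypes. Progenitor markers were present, with Kit at 112 ± 11.1 CPM (n = 3) in wild type and 95.1 ± 8.64 (n = 4) in knockout and Cd34 at 226 ± 45.0 and 222 ± 42.5, beside markers of maturing neutrophils and of eosinophils, basophils and mast cells. The adult globin genes Hba-a1 and Hbb-bt were listed at 0 in every library.

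All 6 C/EBP genes were expressed at moderate levels, and no member passed the study's threshold of an adjusted p under 0.25 for a genotype difference. In edgeR's quasi-likelihood test 2 of 11265 genes passed it, which is 0.0178% of those tested; these were Hdgfl2 and Tspoap1. At an unadjusted p under 0.05 the same test gave 1 of the 6 members, Cebpd, against 3.63% of all genes. DESeq2 and limma-voom also gave 0 of 6 members at the study's threshold. Cebpd was the member whose wild type and knockout levels did not overlap, with every knockout mouse above every wild type mouse, a pattern found in 2.37% of tested genes (5.17% for either direction). The plot of CPM by mouse shows the 6 members side by side.

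**Figure D1:**
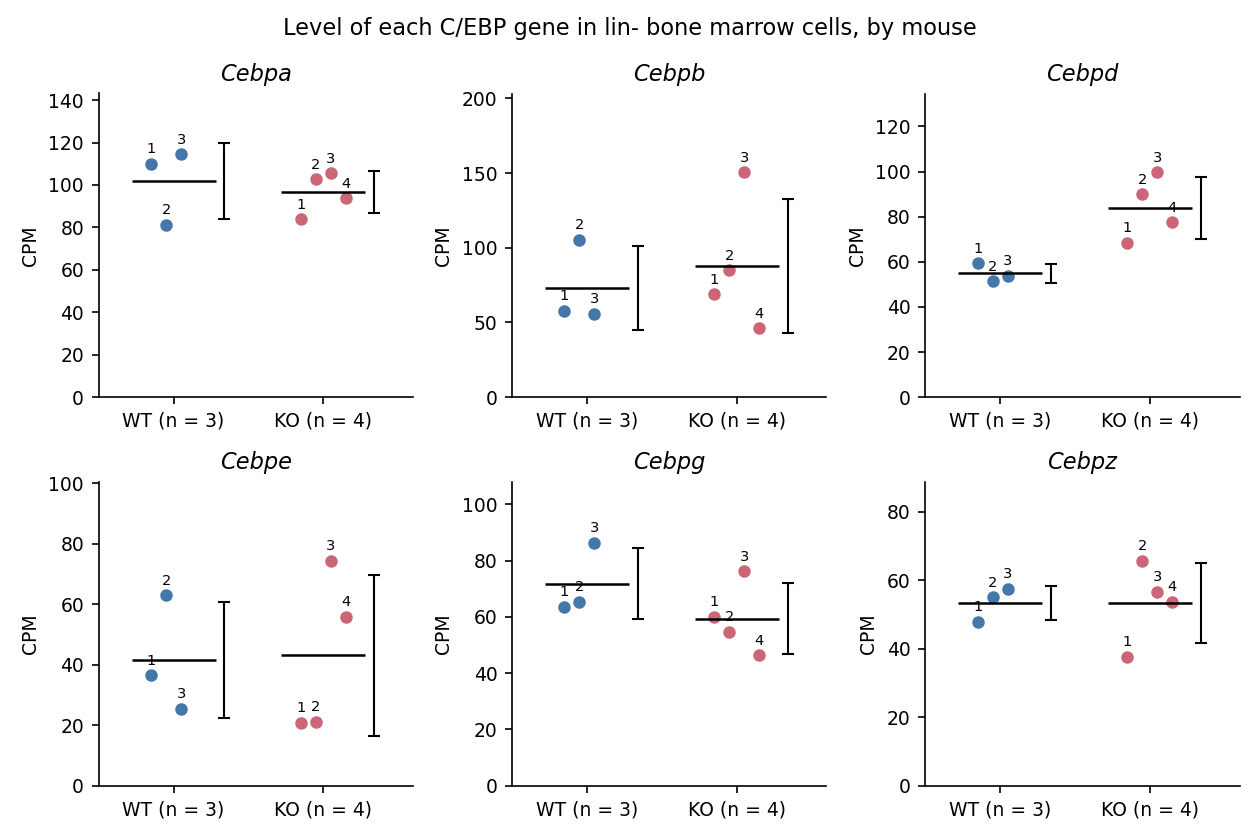
Level of each C/EBP gene in CPM (vertical axes, from 0) in 3 wild type (WT, blue) and 4 knockout (KO, red) mice. Each point is 1 mouse with its replicate number, horizontal lines are means and error bars are SD. The Cebpd points of knockout mice, from 68.4 to 99.7 CPM, all lie above those of wild type mice, from 51.4 to 59.3 CPM, while the other 5 genes overlap.

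Cebpa, the member that commits progenitors to the granulocyte and monocyte lineages, lies at chr7:35119293-35121928 on the plus strand (GRCm38, GENCODE M21). Its level was 110 CPM in WT 1, 81.3 in WT 2 and 114 in WT 3, and 83.8 CPM in KO 1, 103 in KO 2, 106 in KO 3 and 93.7 in KO 4. The lowest and the highest mice were both wild type, so the knockout values lay inside the wild type range. The means were 102 ± 18.02 CPM (SD, n = 3) and 96.5 ± 9.90 (n = 4), and the log2 fold change was -0.08 (SE 0.15, 95% interval -0.40 to 0.24, adjusted p = 0.999). An exact permutation test on log2(CPM + 1), two-sided over all 35 splits of the mice, gave p = 0.629. Without KO 3 the log2 fold change was -0.13 (SE 0.16). The interval leaves room for a decrease or an increase smaller than these bounds.

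Cebpe, which drives the late steps of neutrophil maturation, is a gene of 2 exons at chr14:54710360-54712174 on the minus strand. It was read at 36.5 CPM in WT 1, 62.9 in WT 2 and 25.4 in WT 3, and at 20.7 CPM in KO 1, 21.1 in KO 2, 74.4 in KO 3 and 55.9 in KO 4. Each genotype held both low and high mice, with a ratio of highest to lowest of 2.47 in wild type and 3.58 in knockout mice, so the groups overlapped throughout. The means were 41.6 ± 19.2 CPM (n = 3) and 43.0 ± 26.6 (n = 4), with a log2 fold change of 0.05 (SE 0.59, 95% interval -1.39 to 1.49, adjusted p = 0.999). The mean difference of log2(CPM + 1) had the other sign, -0.07 (exact permutation p = 0.914), and without KO 3 the fitted log2 fold change was -0.36 (SE 0.50). The direction for Cebpe was therefore not resolved, and the interval spans more than a doubling either way.

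Cebpb, the member linked to granulocyte production under infection, is a gene of 1 exon at chr2:167688915-167690418 on the plus strand. It stood at 57.8 CPM in WT 1, 105 in WT 2 and 55.9 in WT 3, and at 68.8 CPM in KO 1, 85.0 in KO 2, 151 in KO 3 and 46.0 in KO 4. The highest and the lowest of the 7 values were both knockout mice. The means were 73.0 ± 28.01 CPM (n = 3) and 87.6 ± 44.9 (n = 4), the log2 fold change was 0.27 (SE 0.45, 95% interval -0.80 to 1.34, adjusted p = 0.999), and the exact permutation test gave p = 0.743. Without KO 3 the knockout mean was 66.6 ± 19.6 CPM (n = 3) and the log2 fold change turned to -0.13 (SE 0.27). It was 0.13 without WT 1, 0.63 without WT 2, 0.11 without WT 3 and 0.48 without KO 4. Tmem189, on the opposite strand, overlaps Cebpb by 908 bases away from its 3′ end and was read at 13.7 CPM in wild type and 16.4 CPM in knockout mice.

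Cebpd, the member induced by cytokines, lies at chr16:15887286-15891031 on the plus strand. Its level was 59.3 CPM in WT 1, 51.4 in WT 2 and 53.8 in WT 3, and 68.4 CPM in KO 1, 89.96 in KO 2, 99.7 in KO 3 and 77.5 in KO 4. The lowest knockout mouse was above the highest wild type mouse. The means were 54.8 ± 4.05 CPM (n = 3) and 83.9 ± 13.7 (n = 4), a log2 fold change of 0.61 (SE 0.16, 95% interval 0.27 to 0.96), which is 1.53-fold with an interval of 1.204 to 1.94. Its unadjusted p of 0.00153 in edgeR's quasi-likelihood test ranked 20 among all genes, and the adjusted p was 0.811. The exact permutation test gave p = 0.0571, where 0.0286 is the smallest value that 35 splits allow.

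The Cebpd difference kept its direction in each of 17 alternative fits, with log2 fold changes of 0.52 to 0.70. It passed the adjusted threshold in 1 of them, the fit with no filter on low counts (adjusted p = 0.193), and DESeq2 gave an adjusted p of 0.288. Without KO 3 the knockout mean was 78.6 ± 10.8 CPM (n = 3), the groups still did not overlap, as in 4.3% of tested genes with knockout above, and the log2 fold change was 0.52 (SE 0.17). Spidr, on the opposite strand, covers the 3′ end of Cebpd by 1808 bases. It had 1 to 7 reads in wild type and 5 to 24 in knockout libraries, against 184 to 535 reads on Cebpd, and reads falling in both genes may have been left uncounted.

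Cebpg, the dimer partner without an activation domain, lies at chr7:35046422-35056573 on the minus strand. Its start site is 62720 bases from that of Cebpa, and the pair are transcribed away from each other. It was measured at 63.7 CPM in WT 1, 65.4 in WT 2 and 86.4 in WT 3, and at 60.1 CPM in KO 1, 54.7 in KO 2, 76.2 in KO 3 and 46.5 in KO 4. KO 3 lay above WT 1 and WT 2 and below WT 3, and the other 3 knockout mice were below all wild type mice. The means were 71.8 ± 12.7 CPM (n = 3) and 59.4 ± 12.5 (n = 4), with a log2 fold change of -0.27 (SE 0.18, 95% interval -0.65 to 0.11, adjusted p = 0.999) and an exact permutation p of 0.286. Without KO 3 the groups no longer overlapped and the log2 fold change was -0.41 (SE 0.18, exact permutation p = 0.1, the smallest that 20 splits allow); 4.94% of tested genes had all 3 remaining knockout mice below all wild type mice. The log2 fold change was smaller without WT 3 (-0.12) and without KO 4 (-0.17).

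Cebpz, the nucleolar protein outside the bZIP group, lies at chr17:78919006-78937066 on the minus strand and has up to 16 exons. It is on the chromosome of Hdgfl2, 22818399 bases beyond the end of that gene. The levels were 47.9 CPM in WT 1, 55.0 in WT 2 and 57.5 in WT 3, and 37.6 CPM in KO 1, 65.7 in KO 2, 56.7 in KO 3 and 53.7 in KO 4. The lowest and highest mice were both knockout, and the means of 53.5 ± 4.98 CPM (n = 3) and 53.4 ± 11.7 (n = 4) nearly coincided. The log2 fold change was -0.0012 (SE 0.19, 95% interval -0.40 to 0.39), or -0.0316 (SE 0.20) without KO 3, and the exact permutation test over the 7 mice gave p = 0.914. Cebpzos, on the opposite strand, covers the 3′ end of Cebpz by 1301 bases and was read at 7.60 CPM in wild type and 7.84 CPM in knockout mice (log2 fold change 0.0577, or -0.17 to 0.37 when 1 mouse was left out).

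**Figure D2:**
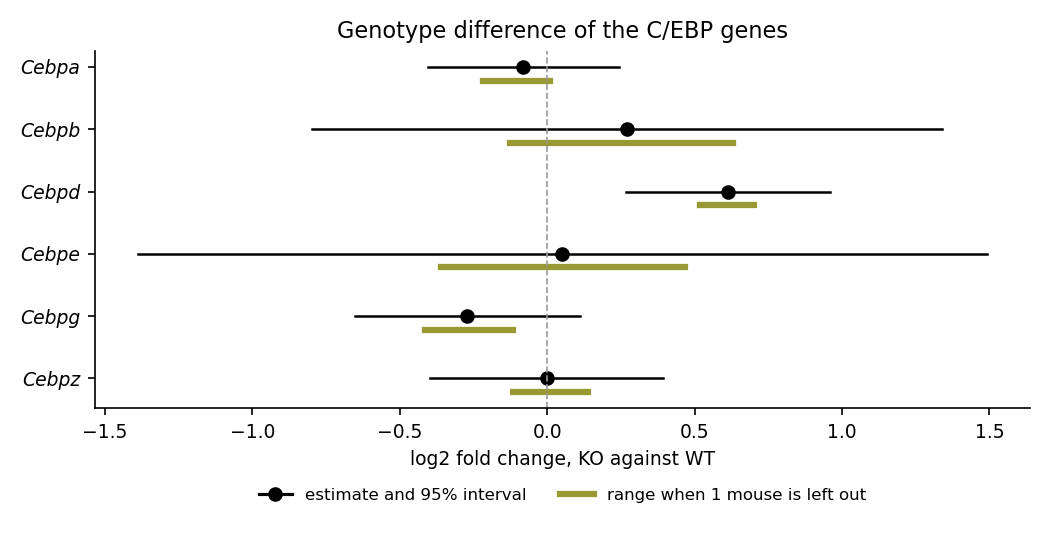
Fitted log2 fold change of knockout against wild type (horizontal axis) for each C/EBP gene, with its 95% interval (black line) and the range of the estimate when each mouse was left out in turn (olive bar). The Cebpd interval, 0.27 to 0.96, lies above 0 and the other 5 intervals span 0.

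Mean levels over the 7 mice followed the order Cebpa (98.8 CPM), Cebpb (81.3), Cebpd (71.4), Cebpg (64.7), Cebpz (53.4) and Cebpe (42.4). The libraries take 1 fragment near the 3′ end of each transcript, so these CPM were compared without dividing by length. Neighbours in this order did not differ beyond the spread between mice: over the 5 adjacent pairs, exact sign-flip permutation tests gave p between 0.125 and 0.672, and 0.312 to 0.672 after adjustment. The steps of the order were therefore not resolved between neighbours. The order also pools genotypes: in wild type means Cebpg (71.8 CPM) stood above Cebpd (54.8), and in knockout means Cebpd (83.9) stood above Cebpg (59.4). Counting error was small beside the spread of the more variable members, since 96 to 808 reads per library stood behind each value.

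The members differed in how much they varied between mice of 1 genotype. The within-genotype SD of log2(CPM + 1) was 0.82 for Cebpe and 0.63 for Cebpb, which placed them at percentiles 99.5 and 98.9 among 6658 genes with a mean of at least 20 CPM. The median gene had an SD of 0.22. Cebpd (0.19, percentile 38.7) and Cebpa (0.21, percentile 43.4) lay below that median, and Cebpg and Cebpz, both at 0.27, lay somewhat above it.

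Within the reads of the 5 bZIP members, the share taken by Cebpd was 18.1% in WT 1, 14.0% in WT 2 and 16.0% in WT 3, and 22.7% in KO 1, 25.4% in KO 2, 19.7% in KO 3 and 24.3% in KO 4. These groups did not overlap, with means of 16.1 ± 2.04% (n = 3) and 23.0 ± 2.49% (n = 4). The share is taken from the same Cebpd reads as the CPM and describes the same difference. The shares of the other 4 overlapped, from 29.96 ± 6.73% in wild type and 26.7 ± 3.99% in knockout for Cebpa down to 11.97 ± 4.85% and 11.3 ± 5.71% for Cebpe. The summed level of all 5 was 343 ± 20.4 CPM (n = 3) in wild type and 370 ± 93.3 CPM (n = 4) in knockout mice, and the knockout range held the wild type range.

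**Figure D3:**
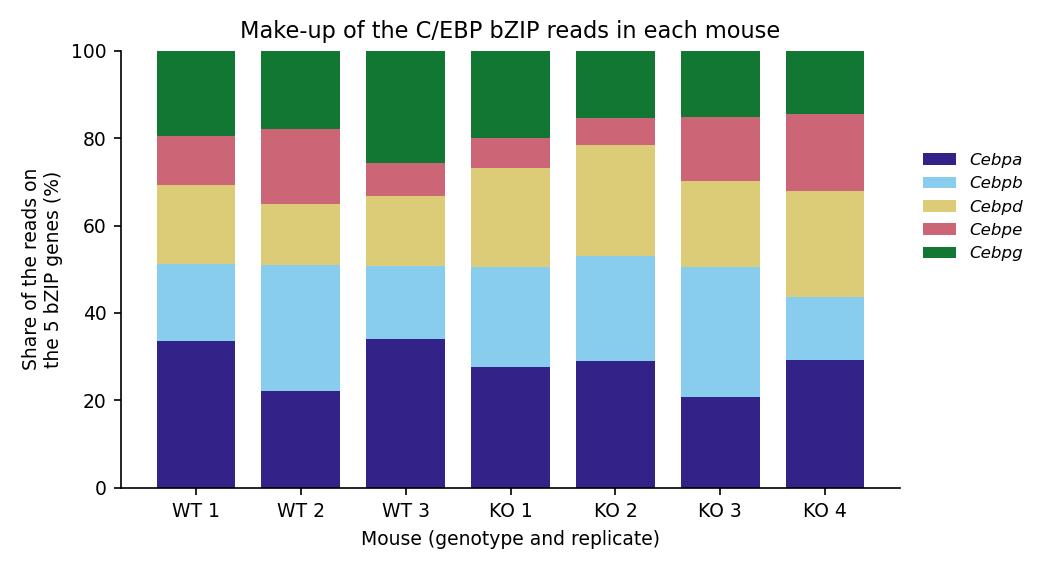
Share of the reads on the 5 bZIP genes taken by each of them (vertical axis, percent, stacked to 100) in each mouse. The Cebpd band is 14.0% to 18.1% in the 3 wild type mice and 19.7% to 25.4% in the 4 knockout mice.

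Ratios of reads between members do not depend on the scaling of a library. There were 1.86, 1.58 and 2.13 Cebpa reads for each Cebpd read in WT 1 to 3 and 1.22, 1.14, 1.06 and 1.21 in KO 1 to 4. The ratios of the knockout mice thus lay above 1 and below those of every wild type mouse. Cebpd reads for each Cebpg read were 0.93, 0.79 and 0.62 in WT 1 to 3 and 1.14, 1.64, 1.31 and 1.67 in KO 1 to 4, so the order of the pair was the reverse in the 2 genotypes. Of the 15 ratios between members, the 3 with Cebpd against Cebpa, Cebpg or Cebpz did not overlap between genotypes and the other 12 did; all 3 share Cebpd and are a description of the same difference.

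No pair of members passed a test of correlation across mice, which 7 mice can show only for a strong relation. Over the 15 pairs of members, Pearson's r of log2(CPM + 1) in the 7 mice lay between -0.30 and 0.44, and the smallest exact permutation p was 0.325 (0.892 or more after adjustment over the 15 pairs). For deviations from the genotype means, r was highest for Cebpa and Cebpd (0.71) and next for Cebpd and Cebpz (0.63), and with the 2 mice most extreme in the first-named gene left out r ran from -0.85 (Cebpb and Cebpe) to 0.88 (Cebpa and Cebpg); these were not tested. Each member was also compared with 6 measures of the libraries, which makes 36 relations, and none passed adjustment. Cebpe had the highest r, 0.84 with the Rn45s share (exact permutation p = 0.0194, adjusted 0.350; Spearman's rho 0.89, p = 0.0123, adjusted 0.443). It was 0.77 without WT 2 and KO 1, the mice with the most extreme shares, 0.85 for deviations from the genotype means and 0.97 without KO 3.

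Cebpd had its highest r with the number of reads on genes, 0.83 (exact permutation p = 0.0157, adjusted 0.350; rho 0.79, p = 0.0480, adjusted 0.864), r = 0.64 without WT 3 and KO 3, and r = 0.64 for deviations from the genotype means. The wild type libraries held 3525665 to 4490287 reads and the knockout libraries 4355974 to 5605158. After all libraries were thinned at random to the smallest total, Cebpd stood at 48.5 to 57.5 CPM in wild type and 67.1 to 99.04 CPM in knockout mice, with a log2 fold change of 0.64 beside 0.61 in the full libraries. Thinning matched the total reads on genes and no other property of the libraries. It leaves the expected CPM of every gene unchanged, so a similar value was fixed in advance. The part of read number in the Cebpd difference was therefore not tested. Cebpg had a negative r with the summed level of immediate-early genes (r = -0.80, exact permutation p = 0.0333, adjusted 0.400; rho -0.61, p = 0.167, adjusted 0.991), with r = -0.73 for deviations from the genotype means and -0.94 without KO 3. It was 0.15 without WT 3 and KO 4, the mice with the most extreme sums, so the relation rests on those mice.

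**Figure D4:**
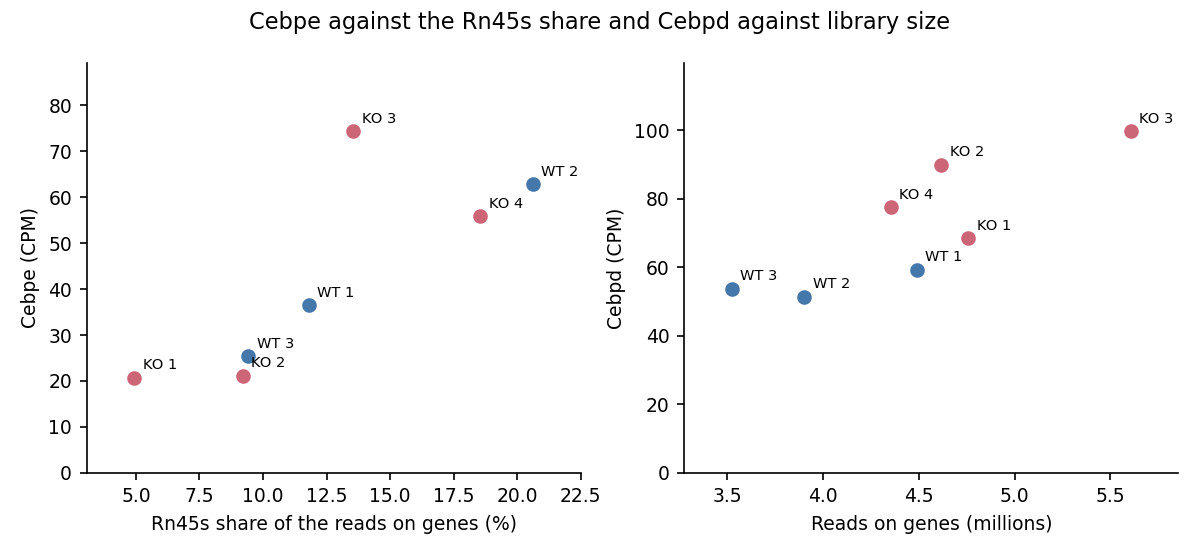
Left, Cebpe (CPM) against the share of reads on Rn45s (percent); right, Cebpd (CPM) against the reads on genes (in units of 1000000). Each point is 1 mouse, blue for wild type and red for knockout. Cebpe is highest in KO 3, WT 2 and KO 4, which hold the largest Rn45s shares, and Cebpd is highest in KO 3, the largest library.

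The genes whose levels were most like each member over the 7 mice were sought among 6657 genes with a mean of at least 20 CPM. Cebpe had 116 genes with Pearson's r over 0.9, led by Smc4 (r = 0.98), a condensin subunit, Pif1 (0.98), a DNA helicase, and Pon2 (0.98), a paraoxonase. The other members had 12 to 27 such genes. The genes most like Cebpd were Tnfaip1 (0.98), Lbp (0.98), which binds lipopolysaccharide, and Pstpip1 (0.96), an adaptor of the cytoskeleton. The genes most like Cebpa were Ogfrl1 (0.94), Zfand3 (0.93) and Wdfy1 (0.93), and those most like Cebpb were Prkcd (0.98), a protein kinase C, Ppp1r12a (0.98) and Plcl2 (0.97). Trf (0.96), which encodes transferrin, Tmppe (0.96) and Anln (0.95) led for Cebpg, and Bzw2 (0.98), Phactr2 (0.95) and Cox5a (0.95) led for Cebpz. Each was chosen as the highest of 6657 values over 7 points, so a high r, and any genotype pattern shared with the member, is a result of the choice.

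Genes that act with or on C/EBP proteins were described by their counts and medians, beside a median log2 fold change of -0.0014 over all tested genes and 49.8% of them higher in knockout. None of the 8 pathway lists had a gene that passed the adjusted threshold in edgeR's test. DESeq2 called 1 gene of these lists, Tnf (adjusted p = 0.0223), and limma-voom called 0. Tnf also passed with no filter on low counts (adjusted p = 0.0692) and with the Rn45s share as covariate (0.239), and its adjusted p ranged from 0.0223 to 1.000 over 17 alternative fits. At an unadjusted p under 0.05 the lists had 0 to 2 genes each. The plot of the lists shows every tested gene.

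Partners of the family were mostly higher in knockout mice. Of 9 tested dimer partners and components of the Trib-COP1 route, which degrades C/EBP alpha, 8 were higher and 1 was lower, with a median log2 fold change of 0.27 (6 higher and 3 lower without WT 2) and 1 gene, Trib1, at an unadjusted p under 0.05. Trib1, the adaptor that brings C/EBP alpha to the ligase, was read at 126 ± 26.4 CPM (n = 3) and 179 ± 20.2 (n = 4), with a log2 fold change of 0.51 (SE 0.16) and overlapping groups. Trib2, of the same route, was the lower gene, at 23.6 ± 6.77 and 18.7 ± 5.63 CPM with overlap (log2 fold change -0.34, SE 0.26). Jun and Fos, which can pair with C/EBP proteins, differed by 0.58 and 0.69 on the log2 scale, with overlap (0.34 to 0.83 for Jun and 0.43 to 1.10 for Fos when 1 mouse was left out, lowest without WT 3). Both belong to the immediate-early genes, of which 11 of 11 were higher in knockout (median 0.42, 1 at an unadjusted p under 0.05, none called). Their summed level was 2631 to 6068 CPM in wild type and 4777 to 8684 CPM in knockout mice and their part in the results was not tested. Without WT 3, 9 were higher and 2 lower. The median was 0.19 without WT 3, 0.26 without KO 4 and 0.67 without WT 1.

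Of 12 transcription factors known to act at Cebp genes or beside C/EBP proteins in granulocyte progenitors, 2 were higher and 10 lower, with a median of -0.21 and 2 at an unadjusted p under 0.05. These were Nfkb1, at 111 ± 15.4 CPM (n = 3) and 79.1 ± 12.8 (n = 4), and Lmo2, at 160 ± 12.2 and 132 ± 6.70. Their log2 fold changes were -0.48 (SE 0.16) and -0.28 (SE 0.13), and neither overlapped between genotypes. Spi1 did not overlap either but was higher in knockout mice, at 149 ± 4.39 and 167 ± 5.72 CPM (0.17, SE 0.13). Of all tested genes, 5.17% had no overlap in either direction. Runx1, which activates Cebpa in progenitors, had a log2 fold change of -0.20 (SE 0.14; -0.11 without WT 3). The median was -0.13 without WT 2 or KO 2 and -0.11 without KO 1. Of 5 myeloid cytokine receptors known as C/EBP targets, 4 were higher and 1 lower (median 0.11, or 0.03 to 0.23 when 1 mouse was left out), and Csf2ra, the alpha chain of the GM-CSF receptor, was read at 26.0 ± 2.71 CPM (n = 3) and 35.1 ± 5.20 (n = 4), without overlap (log2 fold change 0.43, SE 0.20). Il6ra and Csf1r had log2 fold changes of 0.25 (0.11 to 0.39 when 1 mouse was left out) and 0.10 (-0.0649 to 0.26), with overlapping groups.

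Granule genes were described in 2 lists by stage, and the difference between the lists was not tested. Of 6 primary granule genes, which Cebpa and its partners switch on early, 3 were higher and 3 lower, with a median of -0.0165 (-0.0869 to 0.11 when 1 mouse was left out), and Prtn3 (0.19), Elane (-0.14) and Ctsg (-0.10) were within 0.2 of no difference. Leaving out 1 mouse moved these to 0.0759 to 0.32, -0.30 to 0.0648 and -0.18 to -0.0189. Of 18 genes of the secondary and tertiary granules and of late neutrophils, many of them targets of C/EBP epsilon, 18 were higher in knockout, with log2 fold changes from 0.22 to 0.94, a median of 0.55 and 1 gene, Chil3, at an unadjusted p under 0.05. Chil3 was read at 181 ± 37.2 CPM (n = 3) and 242 ± 49.9 (n = 4; 0.42, SE 0.17), and Itgb2l (0.65, but 0.27 without KO 3 and 0.42 without WT 2) and Fcnb (0.52, but 0.21 without WT 2) followed it. The summed level of the 18 genes was 8878, 9732 and 12223 CPM in WT 1 to 3 and 17142, 10308, 26575 and 12803 CPM in KO 1 to 4, so KO 2 lay inside the wild type range and KO 3 far above it. Without KO 3, 16 genes were higher and 2 lower and the median was 0.25. Cebpe itself had a low r with this sum over the mice (r = 0.28, exact permutation p = 0.567, adjusted 0.940; rho 0.07, p = 0.906, adjusted 0.991; -0.01 without KO 1 and KO 3). In bulk RNA, a larger share of maturing neutrophils and more of these transcripts in each cell cannot be told apart.

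Inflammatory genes known as targets of C/EBP beta and delta went both ways, with 6 of 11 tested genes higher and 5 lower (median 0.0423, or 0.0719 to 0.28 when 1 mouse was left out) and 2 at an unadjusted p under 0.05. Tnf, a cytokine, was read at 9.33 ± 0.401 CPM (n = 3) and 20.8 ± 0.656 (n = 4), without overlap, with a log2 fold change of 1.15 (SE 0.24) and an adjusted p of 0.364 in edgeR's test. Il1b, at 9.94 ± 2.89 and 17.1 ± 6.63 CPM, had a log2 fold change of 0.78 (SE 0.32), and Saa3, at 2.402 ± 1.33 and 5.99 ± 4.59 CPM, one of 1.30 (SE 0.63), both with overlap. Without KO 3 these were 0.48 and 0.77. Il6, which C/EBP beta was first described to bind, was at 5.23 ± 0.391 and 4.44 ± 2.38 CPM. Il10, with 2.10 and 1.21 CPM, had too few reads to be tested.

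A list of cell cycle genes linked to C/EBP alpha held Myc, E2f and Cdk genes, which drive the cycle, and Cdkn1a, which encodes the inhibitor p21 and so acts the other way. In it 5 of 7 genes were higher (median 0.15, 0.0697 without WT 3 and 0.0231 without KO 3), or 4 of 6 without Cdkn1a, none of them at an unadjusted p under 0.05. E2f1 had a log2 fold change of 0.21, Myc one of -0.20 (-0.37 to 0.0697 when 1 mouse was left out) and Cdkn1a one of 0.45 (0.19 without WT 3). For Cebpz, 15 genes of nucleolar ribosome assembly and mRNA methylation were described, of which 12 were higher and 3 lower (median 0.15, 0.0970 without KO 4), none at an unadjusted p under 0.05. Nop56 (0.28, 0.19 without WT 3), Mybbp1a (0.27) and Wdr12 (0.23) had the smallest p-values of that list, beside -0.0012 for Cebpz itself.

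**Figure D5:**
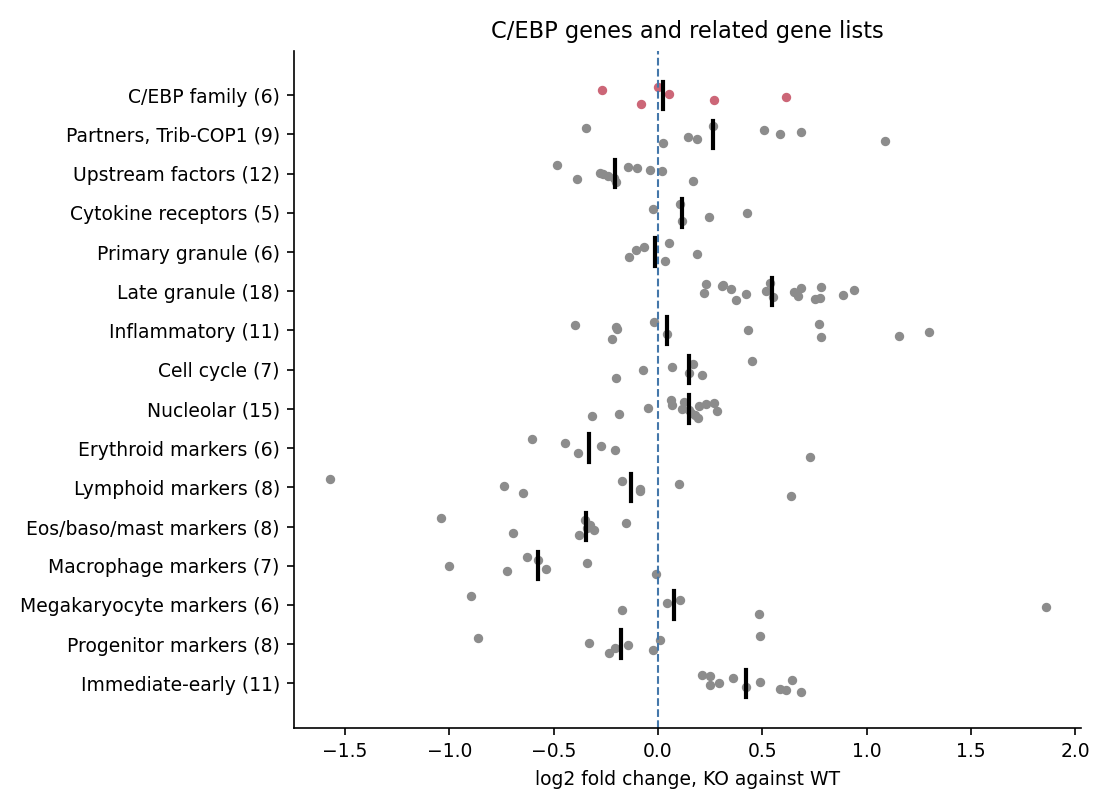
Log2 fold change of knockout against wild type (horizontal axis) for each tested gene of the C/EBP family (red) and of 15 other lists (grey), with the number tested in brackets, the list median (black bar) and the median of all tested genes (dashed blue line). The 18 late granule genes lie between 0.22 and 0.94, and the 6 C/EBP genes between -0.27 and 0.61.

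Markers of other cells in the lin- fraction were measured in the same libraries, and their part in the C/EBP values was not tested. None passed the adjusted threshold in edgeR's test, which had 4 eosinophil, basophil and mast cell markers, 5 macrophage markers and 2 lymphoid markers at an unadjusted p under 0.05, and DESeq2 called C1qc and the lymphoid gene Dntt. C1qc, Dntt and Rag1 also passed with no filter on low counts, Rag1 without WT 1 and C1qc with the Rn45s share as covariate. Dntt, an enzyme of antigen receptor assembly, was read at 176 ± 6.21 CPM (n = 3) in wild type and 106 ± 27.9 (n = 4) in knockout mice, without overlap (log2 fold change -0.74), and Rag1 at 12.8 ± 8.98 and 4.29 ± 2.16 CPM, with overlap (-1.57). The 8 eosinophil, basophil and mast cell markers were all lower in knockout (median -0.34), and their summed level did not overlap, at 4191 to 4622 CPM in wild type and 2862 to 3901 CPM in knockout mice. The 7 tested resident macrophage markers were also all lower (median -0.58; 324 to 395 against 219 to 281 CPM, without overlap), with C1qc at 34.3 ± 2.56 and 17.2 ± 1.12 CPM; Marco had too few reads to be tested. Without WT 3, KO 1 or KO 3, 1 of the 7 macrophage markers was higher and 6 lower. By their medians these macrophage and eosinophil, basophil and mast cell lists were lower in knockout mice. The late granule and immediate-early lists were higher, as Cebpd was. How any of these lists relates to Cebpd was not tested. In summed level the erythroid (134 to 261 and 59.9 to 292 CPM), lymphoid (282 to 381 and 187 to 349), megakaryocyte (226 to 367 and 105 to 884) and progenitor markers (539 to 666 and 503 to 635) overlapped, with medians of -0.33, -0.13, 0.0747 and -0.17 in fitted log2 fold change. The megakaryocyte sum of 884 CPM was that of KO 4, without which the median of that list was -1.06. When 1 mouse was left out, the medians ranged from -0.77 to -0.03 for erythroid, from -0.52 to 0.0789 for lymphoid and from -0.20 to -0.0997 for progenitor markers.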

How the data were processed

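RNA from lin- bone marrow cells of 3 wild type and 4 HRP-2 knockout mice (500 ng each) was sequenced by the authors as QuantSeq 3′ mRNA reverse libraries with 75 bp single-end reads, which give 1 fragment per transcript. The deposited files hold raw read counts per gene symbol. By the paper's methods, reads were aligned to GRCm38 and counted with STAR on an Ensembl annotation of release 84. The tally rows look like those of htseq-count, so the program that gave these counts is uncertain. The strand setting was not given in the sources used here. The 5 tally rows of each file were left out of library sizes; reads on no gene were 27.0% to 31.6% and ambiguous reads 1.99% to 2.403% of the total.

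Groups were taken from the genotype labels. Counts were filtered with edgeR's filterByExpr and TMM-scaled, and knockout was compared with wild type by edgeR's quasi-likelihood test (edgeR 4.0.16, R 4.3.3) with Benjamini-Hochberg adjustment over all 11265 tested genes, at the study's threshold of 0.25. CPM are reads per 1000000 over all genes, with library sizes scaled by TMM factors. Single values were compared by exact two-sided permutation tests of log2(CPM + 1), with 35 splits of the mice. p-values measure the spread between these mice. Intervals cover 95%. A library's 3 reads equal 0.535 to 0.851 CPM, and the biological coefficient of variation was 21.3%.

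Genes named were the 6 members, Hdgfl2, the 3 genes of smallest p in each pathway list, the 3 most like each member, and overlapping genes. Others (Kit, Cd34, C1qc, Dntt, Rag1, Il6, Spi1, Trib2, marker genes at 0 or untested and genes of the library check) were named after their values were seen. The members and lists were chosen with earlier results of these data known. Alternatives were DESeq2 1.42.0, limma-voom (limma 3.58.1), RLE and library-total scaling, other filters, a replicate block, leaving out Rn45s and leaving out each mouse; the Rn45s share as a covariate and the thinning were added after seeing the data. The test code was tested on simulated data. Positions come from GENCODE M21, which holds 97.6% of the symbols.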

Additional observations from a re-analysis of the deposited data

Results flagged for a closer look

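In the 4 knockout mice, 54 values were screened with Dixon's criterion, which singles out about 1 group in 20 by chance, and 2 exceeded it. Zfand3, named for its likeness to Cebpa, was read at 42.3 CPM in KO replicate 1 against 48.8 to 49.95 CPM in the other 3. Ddx3y was read at 104 CPM in KO replicate 3 against 0 to 0.775 CPM in the other 3, and the C/EBP values are given with and without that library.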

How the results depend on the processing

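The number of genes past an adjusted p of 0.25 (2) was 21 with DESeq2, 41 with no filter on low counts, 1 with at least 10 counts in every mouse, 8 with the Rn45s share as covariate and 2 to 7 when a mouse was left out (7 without WT 1, 4 without KO 1). At an adjusted p of 0.05 (2) the counts were 6, 19 and 1 under the first 3 of these and 1 to 5 when a mouse was left out. Cebpd passed 0.25 with no filter (log2 fold change 0.62), and its exact permutation p was 0.0286 with CPM on library totals (difference 0.59). The causes were not tested.

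The fitted direction was not stable for 4 members. Cebpe was -0.0757 with limma-voom. Cebpz was 0.0074 with DESeq2, 0.0073 with RLE scaling, 0.0018 with no filter, 0.0303 with the Rn45s share as covariate and 0.0108 in thinned libraries. Leaving out 1 mouse gave -0.22 to 0.0102 for Cebpa, -0.13 to 0.63 for Cebpb, -0.36 to 0.47 for Cebpe and -0.12 to 0.14 for Cebpz, and also turned Csf1r (-0.0649 to 0.26), Elane (-0.30 to 0.0648), Myc (-0.37 to 0.0697) and Cebpzos (-0.17 to 0.37). Without KO 3 the permutation difference of Cebpb was -0.11. Cebpd (0.52 to 0.70) and Cebpg (-0.41 to -0.12) kept their directions in all 17 fits.

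Replicate numbers were not used to pair the mice. Deviations of same-numbered mice correlated at -0.02, -0.19 and -0.14, against -0.12 to 0.20 for mice of different numbers. These values cannot show whether same-numbered mice shared a batch. With a replicate block 1 gene passed 0.25 and 1 passed 0.05, and Cebpe was -0.30 and Cebpd 0.63.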
